A study of Mus musculus with 12 samples.

Results

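The genes described here are the 8 slow-fibre genes Myl2, Myl3, Tnnc1, Tnni1, Tnnt1, Tpm3, Myoz2 and Csrp3, which encode light chains, troponins, a tropomyosin and Z-disc proteins of slow muscle. They were taken from the table by their symbols, and all 8 were present among the 10187 genes measured by RNA-Seq in 12 samples of triceps brachii, a large forelimb muscle, each from 1 male C57/BL6 mouse. There were 4 groups of 3 mice, namely IW and IM mice, which were inactive, and AW and AM mice, which were active. The second letter gives the genotype, W for wild-type and M for myostatin-reduced. Mice of all 4 groups ate chow with 0.025% tamoxifen for 6 weeks in total between 4 and 6 months of age, and from 6 months the active mice had a running wheel for 12 weeks. For this the active mice were moved to individual housing, so running and single housing cannot be told apart. The sampled myostatin-reduced and control mice were matched for running behaviour. Tamoxifen switched on a Cre recombinase that removed the floxed part of Mstn, the gene of the muscle growth inhibitor myostatin, in the myostatin-reduced mice. The promoter that drives Cre was not given in the sources used here, and neither was whether the mice of a group were littermates.

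Skeletal muscle holds slow fibres, which contract slowly and rely on oxidative metabolism, and several kinds of fast fibres. Each kind builds its sarcomere, the contractile unit between 2 Z-discs, from its own versions of the same parts. In slow fibres the myosin heavy chain of Myh7 carries the regulatory light chain of Myl2 and the essential light chain of Myl3. On the thin filament, calcium binds slow troponin C (Tnnc1), which acts through slow troponin I (Tnni1) and slow troponin T (Tnnt1) on tropomyosin (Tpm3). Myoz2, also called calsarcin, tethers the phosphatase calcineurin to the Z-disc, and Csrp3 encodes the muscle LIM protein of the same structure. Several of these genes, among them Myl2, Myl3, Tnnc1, Myoz2 and Csrp3, are also used by heart muscle.

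Each value below is a normalized read count, which the study scaled to make mice comparable and did not divide by gene length. From the spacing of the low values, 1 read was worth 0.077 to 0.105 of this unit, which puts 9023561 to 12188516 reads behind each mouse. Mstn, the targeted gene, had values of 79.7 to 138 in IW and 80.8 to 110 in AW mice, against 17.2 to 21.6 in IM and 8.70 to 16.1 in AM mice. The 6 genes listed as markers of fast skeletal muscle, Acta1, Ckm, Myh4, Myh1, Mylpf and Tnnt3, were present in every mouse and summed to 136732 to 207852. Whether each is confined to fast fibres, Acta1 and Ckm among them, was not tested. Of the 6 cardiac markers listed, only Myh6 was measured, at 0.92 to 6.38, and Tnni3, Tnnt2, Myl7, Nppa and Ryr2 were not analysed here.

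The 8 members were unequal between mice of the same group. IM mice had low values of every member in all 3 animals, while IW, AW and AM each held at least 1 mouse with high and 1 with low values. AW mice had the highest mean for all 8 members and IM mice the lowest. Differences between active and inactive mice, and between genotypes, did not pass the test for any of the 8. Among the pairwise comparisons, Myoz2 and Csrp3 were called higher in AW than in IM mice, 2 of 8 members against 18.7% of all genes, and both calls depended on single mice.

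**Figure D1:**
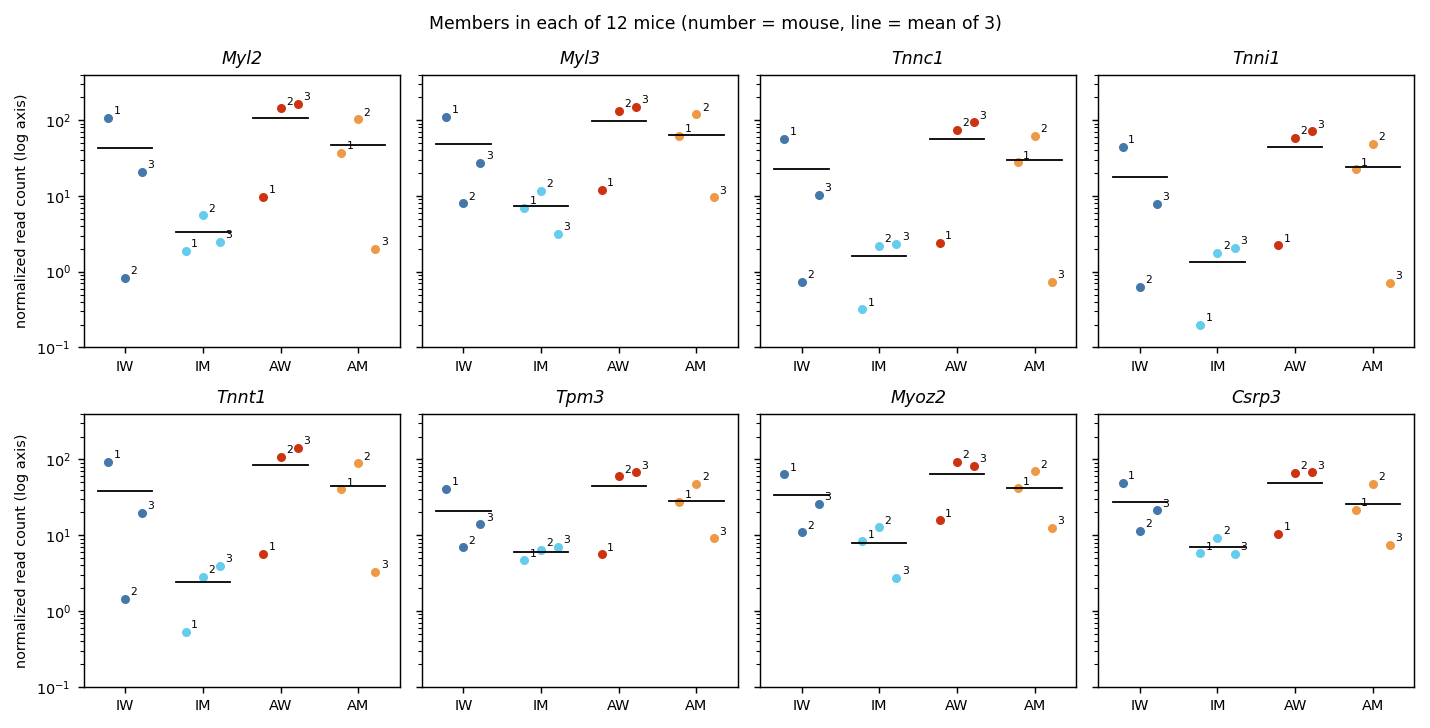
Normalized read count (log axis) of the 8 members in each mouse of the groups IW, IM, AW and AM. Each point is 1 mouse, the digit beside it is its replicate number and the black line is the mean of 3 mice. The same 5 mice, IW 1, AW 2, AW 3, AM 1 and AM 2, are the highest for every member.

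The light chains were the most abundant members per length, with a mean over 12 mice of 68.4 per kilobase of transcript for Myl2 and 57.5 for Myl3. Myl2 (NCBIM37/mm9 chromosome 5, 122550960 to 122563481, plus strand) had values of 107, 0.83 and 20.7 in IW mice 1, 2 and 3, and 1.88, 5.54 and 2.48 in IM mice. In AW mice Myl2 was 9.78, 143 and 166, and in AM mice 37.1, 102 and 2.02. In IW, AW and AM the lowest mouse thus stood far below the highest, and the groups overlapped except for AW and IM, where the lowest AW mouse was above all IM mice. Myl3 (chromosome 9, 110666150 to 110672308, plus strand) followed the same mice at 110, 7.98 and 27.2 in IW and 6.91, 11.7 and 3.19 in IM. It was 12.1, 132 and 150 in AW and 61.6, 119 and 9.59 in AM mice. Within IW mice the ratio of highest to lowest was 129 for Myl2 and 13.8 for Myl3.

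The 3 slow troponin genes varied more than Myl3. Tnnc1 (chromosome 14, 32021498 to 32024915, plus strand) had values of 56.8, 0.74 and 10.4 in IW, 0.32, 2.18 and 2.34 in IM, 2.40, 75.1 and 94.1 in AW and 27.7, 62.2 and 0.74 in AM mice. Tnni1 (chromosome 1, 137679642 to 137707566, plus strand) had 44.1, 0.63 and 7.89 in IW, 0.20, 1.77 and 2.07 in IM, 2.23, 58.8 and 71.1 in AW and 22.3, 48.3 and 0.71 in AM mice. Tnnt1 (chromosome 7, 4456172 to 4467984, minus strand) had 93.2, 1.44 and 19.8 in IW, 0.53, 2.81 and 3.97 in IM, 5.73, 107 and 142 in AW and 40.4, 89.3 and 3.32 in AM mice. The high mice were again IW 1, AW 2, AW 3, AM 1 and AM 2, and IW 3 stood between the high and the low mice. For each troponin the lowest AW mouse lay just above the highest IM mouse, and every other pair of groups overlapped.

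These low troponin values rest on few reads. IM mouse 1 had about 2 reads of Tnni1, 3 of Tnnc1 and 5 of Tnnt1. The ratio of the highest mouse, AW 3, to this lowest mouse was 355.5 for Tnni1 (exact 95% counting interval 93.1 to 2791), 294 for Tnnc1 (102 to 1446) and 268 for Tnnt1 (115 to 832). Myl2 reached 200 between AW mouse 3 and IW mouse 2, the latter with about 9 reads (105 to 438). These intervals cover counting error only, and the reads were estimated from the spacing of the values.

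Tropomyosin and the Z-disc members had narrower ranges. Tpm3 (chromosome 3, 89876571 to 89904824, plus strand), which also yields tropomyosin of non-muscle cells, had values of 41.1, 6.92 and 14.0 in IW and 4.64, 6.46 and 7.07 in IM mice. In AW mice Tpm3 was 5.63, 59.7 and 67.3, and in AM mice 27.6, 47.9 and 9.13, so that all 3 AM mice exceeded all IM mice. The tropomyosin genes share similar exons, so reads may be divided among them with some uncertainty. Myoz2 (chromosome 3, 122709124 to 122737908, minus strand) had 63.8, 10.9 and 25.8 in IW, 8.33, 12.7 and 2.76 in IM, 15.7, 93.7 and 82.7 in AW and 41.8, 70.02 and 12.6 in AM mice. Csrp3 (chromosome 7, 56085768 to 56103400, minus strand) had 48.8, 11.5 and 21.3 in IW, 5.80, 9.18 and 5.70 in IM, 10.47, 66.9 and 67.3 in AW and 21.5, 47.7 and 7.50 in AM mice. For Csrp3 all IM mice lay below all IW and all AW mice. From highest to lowest mouse the ratio was 33.9 for Myoz2, 14.5 for Tpm3 and 11.8 for Csrp3, with at least 30 reads behind the lowest value of each.

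The spread between mice treated alike was among the widest of the 7247 genes with a mean of at least 10. Myh7 ranked 1 of 7247 by its SD within groups, at 3.00 on the log2(value + 1) scale. Tnnc1 followed at rank 2 (2.32), Myl2 at 3 (2.29), Tnni1 at 4 (2.18), Tnnt1 at 5 (2.18), Myl3 at 6 (1.67), Tpm3 at 8 (1.27), Myoz2 at 9 (1.21) and Csrp3 at 11 (1.11). The median gene had an SD of 0.122, and 95% of genes were at or below 0.290. In bulk muscle, fewer slow fibres and less RNA per slow fibre cannot be told apart.

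The first question was whether the members differed between active and inactive mice over both genotypes. On the log2(value + 1) scale, which understates the change of low genes, the active minus inactive difference was positive for all 8 members, with a median of 1.90 against -0.022 for all genes tested. None of the 8 passed the test in limma (adjusted p-values from 0.0883 to 0.22 over 7247 genes), and 4 of 8 had an unadjusted p under 0.05, against 30.2% of all genes. Of all genes tested, 14.5% were called for activity. Myoz2 came nearest, with a difference of 1.52 (SE 0.56, limma adjusted p = 0.0883). Tnnt1 at 2.26 (SE 1.01, adjusted p = 0.151) and Myl2 at 2.24 had close to the same estimate, with Myl2 above Tnnt1 at a pseudocount of 4 (1.81 and 1.77), and Csrp3 had 1.04 (SE 0.51, adjusted p = 0.191). No member separated active from inactive mice in both genotypes, whereas 7.81% of genes did. In the exact permutation of mice within genotype (400 arrangements, two-sided), p ranged from 0.07 for Myoz2 to 0.145 for Tnnc1 and Tnni1. The 4 endothelial markers listed summed to 209 to 264 in IW, 180 to 189 in IM, 209 to 360 in AW and 232 to 390 in AM mice, and 3 of them were called higher in active mice, Tek (limma adjusted p = 0.0122), Kdr (0.0281) and Pecam1 (0.0308). The adipocyte marker Fabp4 was higher by 0.64 (SE 0.11, limma adjusted p = 0.00331). Of the other adipocyte markers measured, Cfd was not called (0.31, SE 0.31, limma adjusted p = 0.526). Adipoq and Plin1, too low to be tested, had lower means in active mice of both genotypes. Adipoq had 7.50 (IW) and 4.91 (IM) against 5.79 (AW) and 4.39 (AM). Plin1 had 3.24 (IW) and 2.42 (IM) against 2.71 (AW) and 1.80 (AM). The part of these markers in the result was not tested.

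Leaving out AW mouse 1, the lowest active wild-type mouse, gave 5 members a limma adjusted p under 0.05 for activity, namely Myl3, Tnnt1, Tpm3, Myoz2 and Csrp3. Weighting mice by their agreement with the fit gave 6. Other removals lowered the activity difference. With a mouse left out it ran from 1.45 to 2.97 for Myl2, 1.565 to 2.96 for Tnnt1 and 1.39 to 2.81 for Tnnc1. The lowest of each was without IW mouse 2.

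The second question was the genotype. The myostatin-reduced minus wild-type difference was negative for all 8 members, from -0.81 for Tpm3 to -1.75 for Myl2, with a median of -1.38 against -0.005 for all genes tested. None passed the test (limma adjusted p from 0.178 to 0.455), 1 of 8 had an unadjusted p under 0.05, against 22.5% of all genes, and 5.78% of all genes were called. The single unadjusted p under 0.05 was that of Csrp3, with a difference of -1.24 (SE 0.51, limma adjusted p = 0.178). Exact permutation of mice within activity levels gave p-values from 0.09 for Csrp3 to 0.28 for Tpm3. No member separated the genotypes at both activity levels, against 5.37% of genes. The 3 markers of developing muscle that were measured, of 5 listed, summed to 31.9 to 83.8 in wild-type and 163 to 254 in myostatin-reduced mice. Actc1 made up most of that difference, at 18.3 to 71.2 and 152 to 240, while Myh8 overlapped (6.27 to 9.76 and 6.80 to 10.55), and the means of Myh3 were 3.83 (IW) and 4.09 (AW) against 3.24 (IM) and 3.22 (AM). Their part in the result was not tested. Without AW mouse 1, Csrp3 was called for genotype at -1.67 (limma adjusted p = 0.0337). The weakest difference of Csrp3 with a mouse left out was -0.91, without AM mouse 3. Over these settings Myl2 ran from -2.53 to -1.02 and Tpm3 from -1.35 to -0.48.

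The third question was whether the activity difference depended on genotype. The interaction, the activity difference in myostatin-reduced minus that in wild-type mice, was positive for all 8, from 0.53 for Myl2 (SE 2.12) to 1.56 for Tnnt1 (SE 2.01), with a median of 1.10 against -0.005 for all genes tested. No member passed (limma adjusted p from 0.896 to 0.979), none had an unadjusted p under 0.05, against 4.1% of all genes, and 0% of the 7247 genes were called. The standard errors exceeded the estimates for 7 of the 8 members, Myoz2 being the other (1.25, SE 1.12). The sign of this difference depended on single mice for 5 members, as without AW mouse 1 it was negative for Myl2, Tnnc1, Tnni1, Tpm3 and Csrp3.

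Of the 6 pairwise comparisons, AW against IM gave the widest separation. Myoz2 was higher in AW than in IM mice by 2.70 (SE 0.79, limma adjusted p = 0.0331), with means of 64.0 ± 42.2 and 7.94 ± 4.996 (SD, n = 3). Csrp3 was higher by 2.28 (SE 0.73, limma adjusted p = 0.0451), with means of 48.2 ± 32.7 and 6.89 ± 1.98 (SD, n = 3). The other 6 members had differences from 2.11 for Tpm3 to 3.98 for Myl2 and adjusted p-values from 0.0682 to 0.123. The median over the members was 3.28, against -0.014 for all genes tested. The 2 calls among 8 members are near the share of 18.7% over all genes. In 7 of 8 members, Tpm3 being the exception, every AW mouse exceeded every IM mouse, and AW and IM did not overlap in 38.9% of all genes. The endothelial sums given above did not overlap between IM and AW mice. Of 5 adipocyte markers, 4 were measured and summed to 102 to 127 in IM and 156 to 221 in AW mice, of which Fabp4 alone was called (82.0 ± 6.08 against 150.4 ± 26.2, SD, n = 3, limma adjusted p = 0.00375). The genes listed for fast skeletal muscle summed to 198533 to 207852 in IM and 136732 to 162887 in AW mice, a sum in which Myh4 was the largest part. The fast heavy chain gene Myh1 went the other way, at 1727 to 2929 in IM and 8406 to 12563 in AW mice, higher by 2.17 (SE 0.32, limma adjusted p = 0.00172). The part of these 3 marker lists in the differences was not tested.

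These calls rest on single mice. Without IM mouse 1, IM mouse 3, AW mouse 2 or AW mouse 3, neither Myoz2 nor Csrp3 passed the test, and without AW mouse 1 all 8 members did. Csrp3 also failed it without IW mouse 3, IM mouse 2 or AM mouse 1. With robust eBayes neither passed (limma adjusted p = 0.0932 for Myoz2 and 0.113 for Csrp3), and with quantile normalization Csrp3 did not (adjusted p = 0.0635). With log2 Myh7 of each mouse in the model the AW minus IM difference was 1.09 for Myoz2 (limma adjusted p = 0.225) and 0.69 for Csrp3 (adjusted p = 0.268). Myh7 moves with the members (r = 0.976 with their mean within groups). This covariate therefore takes out much of their difference by construction, and its outcome cannot judge the calls.

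No member was called in the other 5 pairwise comparisons, of which 4 share mice with the first and AM minus IW does not. Higher values in AM than in IM mice had a median difference of 2.51 over the members (7.84% of all genes called), and Tpm3 was the only member whose groups did not overlap, against 29.8% of genes. IM minus IW differences were negative for all 8 (median -2.00, with 2.51% of genes called), and Csrp3 was the only member without overlap, against 25.8% of genes. AW minus IW was positive for all 8 (median 1.27, 0.0276% called). AM minus AW was negative for all 8 (median -0.87, 0.207% called). AM minus IW was positive for 7 and -0.19 for Csrp3 (2.97% called). By group mean the order was AW, AM, IW, IM for 7 members and AW, IW, AM, IM for Csrp3, and no neighbours in either order passed the test.

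**Figure D2:**
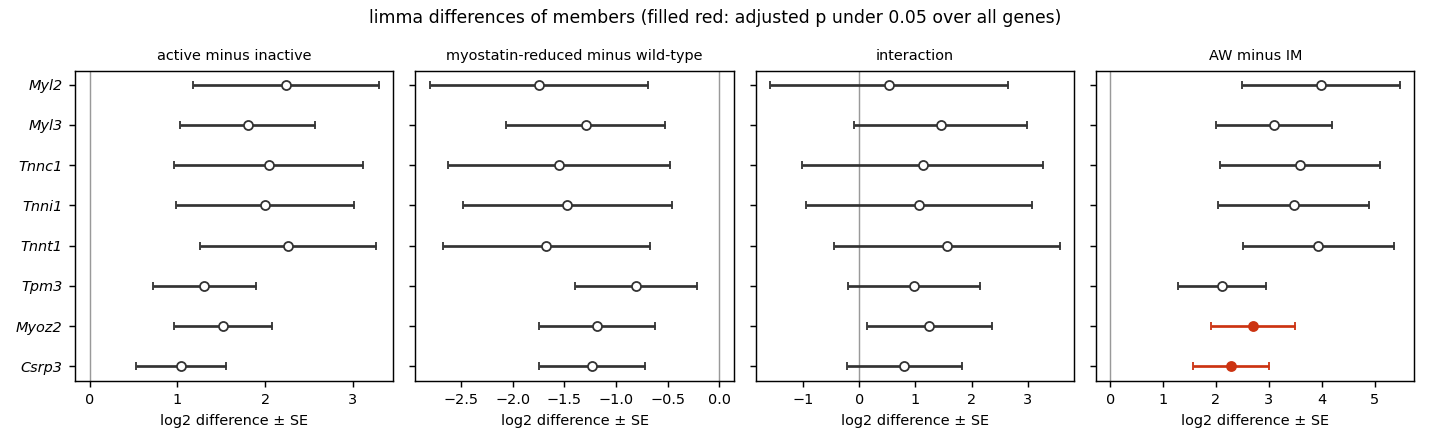
Differences on the log2(value + 1) scale with their standard errors from limma for the 8 members, for activity, genotype, their interaction and AW minus IM. Filled red points have an adjusted p under 0.05 over 7247 genes, which holds for Myoz2 and Csrp3 in AW minus IM, at 2.70 and 2.28, and for no other point.

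The members shared their highest and their lowest mice. For all 8, the 5 highest mice were the same animals, IW mouse 3 was the sixth, and the 6 lowest were IW mouse 2, the 3 IM mice, AW mouse 1 and AM mouse 3. Once the group means were removed, Pearson's r between members over the 12 mice ranged from 0.854 for Tnnt1 with Myoz2 to 0.9998 for Tnnc1 with Tnni1, and Spearman's rho from 0.881 to 1.00. All 28 pairs passed an exact permutation of mice within groups (two-sided, adjusted p from 0.00309 to 0.00926 over the 28 pairs). At an unadjusted p under 0.05 with r above 0, all 28 pairs passed, against 6.4% of the 57912 pairs of a member with another gene tested. Without the 2 mice farthest from the median of the first gene of the pair, r was 0.744 to 0.9996 and 16 of 28 pairs had an exact permutation adjusted p under 0.05.

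Since the mice stood in a higher and a lower set, r was also taken within each. Unlike the r over 12 mice, these were taken on log2(value + 1) without removal of group means. Myh7 was 63.1 to 498 in the 6 mice of the higher set and 1.29 to 15.6 in the 6 of the lower, a division made after its values were seen. These r are descriptions with no test, since rearranging mice within their groups allows only 8 arrangements in the higher and 6 in the lower set. In the higher set r was 0.909 to 0.9997. In the lower set r ran from -0.27 for Myl2 with Tpm3 to 0.995 for Tnnc1 with Tnni1, with a median of 0.216. There r was 0.982 for Myl3 with Myoz2, 0.878 for Tnni1 with Tnnt1 and 0.05 for Tnnt1 with Myoz2. Among these mice the troponins were lowest in IM mouse 1, and Myl3 and Myoz2 in IM mouse 3. The r over 12 mice spans the gap between both sets. The difference in r between the sets was not tested, and the troponin values of the lower set rest on few reads.

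**Figure D3:**
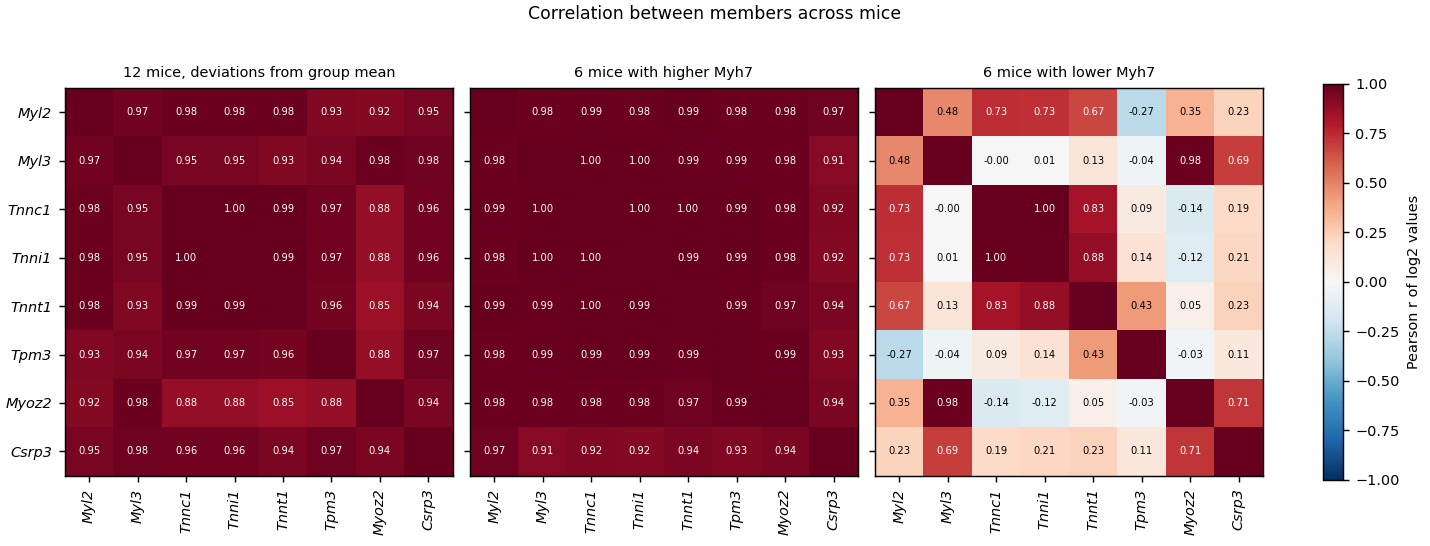
Pearson's r between the members on log2(value + 1), over 12 mice after removal of group means. The other panels, over the 6 mice with the higher Myh7 and the 6 with the lower Myh7, are without that removal. Every r of the first 2 panels is at least 0.85, whereas the third runs from -0.27 to nearly 1.

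Per length, Tnnc1 and Tnni1 kept the steadiest proportion. In the 6 mice with the higher Myh7 the ratio of Tnnc1 to Tnni1 per length was 1.90 to 2.03, and over all 12 mice 1.60 to 2.45. Tnnt1 to Myh7 per length was 1.32 to 1.82 in the higher mice, Tnnc1 to Myh7 1.29 to 1.61 and Tnni1 to Myh7 0.653 to 0.793. Csrp3 to Myh7 per length was less steady, at 0.829 to 2.30 in the higher mice and up to 61.0 over all 12.

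The levels of the members in the 6 lower mice differed, with overlapping ranges. In the 6 mice with Myh7 under 20, Tnnc1 was 0.44 to 3.33 per kilobase, Tnni1 0.18 to 2.02, Tnnt1 0.50 to 5.41 and Myl2 1.14 to 13.4. In the same mice Csrp3 was 6.34 to 12.8 per kilobase, Myl3 3.38 to 12.8, Myoz2 2.39 to 13.6 and Tpm3 2.08 to 4.09, so that Tnnc1, Tnnt1 and Myl2 overlapped Tpm3. A straight line of each member against Myh7 over the 12 mice met Myh7 = 0 at a normalized count of -0.15 for Tnnc1, -0.14 for Myl2, 0.12 for Tnni1 and 0.97 for Tnnt1. With each mouse left out in turn these ran from -0.30 to 0.41 for Tnnc1, -0.97 to 1.01 for Myl2, -0.01 to 0.46 for Tnni1 and 0.57 to 1.89 for Tnnt1. For Tpm3 it did so at 5.98, for Myl3 at 7.68, for Csrp3 at 7.71 and for Myoz2 at 10.7, and these 4 ran from 5.51 to 12.2 with a mouse left out. Whether other fibres or cells carry a part of these levels was not tested.

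**Figure D4:**
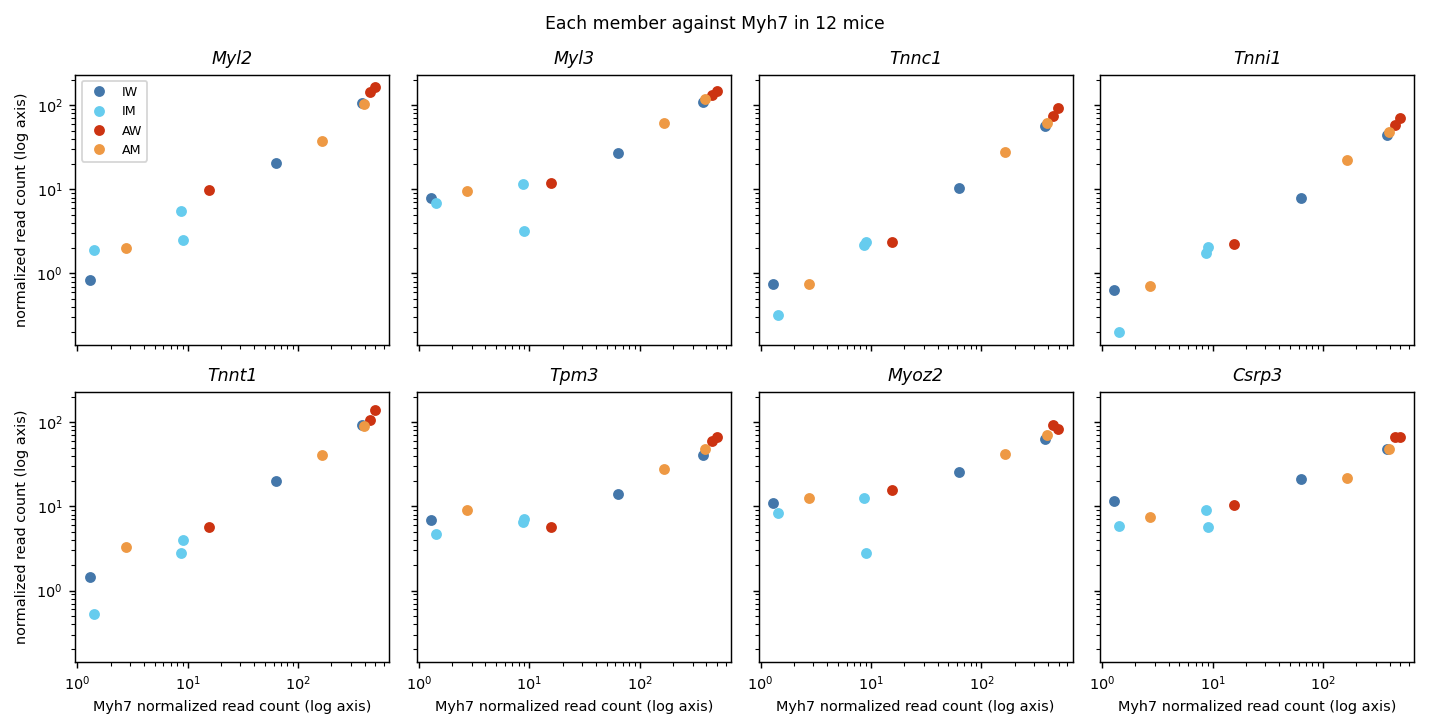
Normalized read count of each member against Myh7 in 12 mice, both axes log, coloured by group. In the 6 mice with the lowest Myh7, Myl3, Tpm3, Myoz2 and Csrp3 lie between 2.76 and 15.7, while Tnnc1 and Tnni1 reach values under 1.

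Against the genes listed as their fast counterparts, the members were a small share of each set of genes in every mouse, per length of transcript. Slow troponin C (Tnnc1) made up 0.00256% to 0.953% of Tnnc1 plus Tnnc2, slow troponin I (Tnni1) 0.00124% to 0.514% with Tnni2, and slow troponin T (Tnnt1) 0.00257% to 0.792% with Tnnt3. Myl2 made up 0.0118% to 3.11% with the fast regulatory light chain Mylpf, and Myl3 0.0635% to 3.45% with Myl1. Tpm3 was 0.0124% to 0.213% beside Tpm1 and Tpm2, and Myoz2 0.0825% to 3.70% beside Myoz1 and Myoz3. The Tpm3 value is a share among tropomyosin genes, and whether Tpm2 is confined to fast fibres was not tested. Tpm2 alone of the 9 listed had a positive activity difference (0.11, SE 0.08, limma adjusted p = 0.388), against 8 negative. The share of Tnnc1 was 0.953% in AW mouse 3 and at most 0.0181% in IM mice. Of the 9 genes listed as fast counterparts, Myoz3 alone was called for activity, lower in active mice by 0.30 (SE 0.07, limma adjusted p = 0.0113), and none was called for genotype. This 1 call of 9 is no larger a share than the 14.5% of all genes called for activity.

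**Figure D5:**
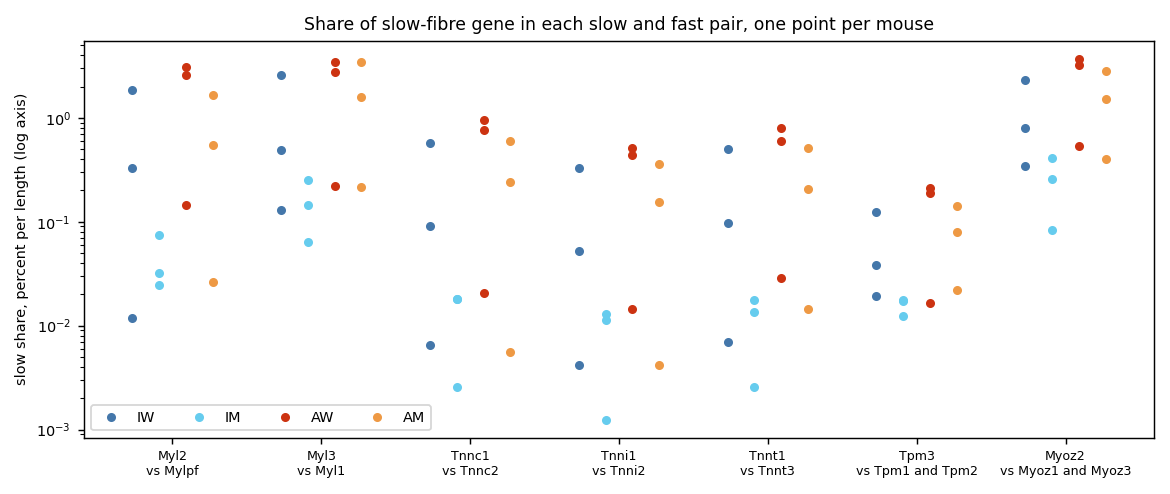
Share of the slow gene in its sum with the genes listed as fast counterparts, in percent per length of transcript (log axis), for 7 members in each of 12 mice, coloured by group. The shares run from 0.00124% for Tnni1 to 3.70% for Myoz2, and IM mice reach at most 0.406%, in Myoz2.

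Other genes of slow fibres were taken from a list of 11. Of these, Fhl2 was not analysed here, and Myh7b, Myl6b and Pln had a mean under 10. The activity difference was positive for all 7 tested. Of the 7, 4 were called higher in active mice, against 14.5% of all genes called for activity in either direction. Casq2, the calcium buffer of slow and cardiac reticulum, was higher by 1.34 (SE 0.23, limma adjusted p = 0.00306), the M-band gene Myom3 by 1.79 (SE 0.43, adjusted p = 0.0173), the stretch-responsive Ankrd2 by 1.74 (SE 0.44, adjusted p = 0.0213) and the slow myosin-binding protein gene Mybpc1 by 0.67 (SE 0.19, adjusted p = 0.0313). The standard errors of these 4 genes, 0.19 to 0.44, were all below those of the 8 members, 0.51 to 1.07. Myh7 itself (2.68, SE 1.38, adjusted p = 0.211) and the slow calcium pump gene Atp2a2 (1.28, SE 0.66, adjusted p = 0.211) were not called. Smpx alone of the 7 was called for genotype, against 5.78% of all genes, and was higher in myostatin-reduced mice by 0.24 (SE 0.06, limma adjusted p = 0.0346).

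Other Z-disc genes moved in both directions. Of 12 tested, 6 were called for activity, against 14.5% of all genes. Of these, 3 were higher in active mice, namely Actn2 by 1.14 (SE 0.21, limma adjusted p = 0.00517), the small heat shock protein gene Cryab by 0.55 (SE 0.10, adjusted p = 0.00379) and the myotilin gene Myot by 0.18 (SE 0.05, adjusted p = 0.0307). Another 3 were lower, namely Actn3, the alpha-actinin of fast fibres, by 0.49 (SE 0.12, adjusted p = 0.0186), Pdlim3 by 0.39 (SE 0.10, adjusted p = 0.0204) and Pdlim7 by 0.24 (SE 0.07, adjusted p = 0.0378). For genotype 3 of 12 were called, against 5.78% of all genes. Actn3 (0.48, SE 0.12, limma adjusted p = 0.0392) and Ldb3 (0.21, SE 0.05, adjusted p = 0.0279) were higher in myostatin-reduced mice and Pdlim5 lower by 0.27 (SE 0.05, adjusted p = 0.00894). The median activity difference was -0.06 over these 12 genes and -0.02 over all 7247.

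Among 2555 other genes with a mean of at least 50, those most like the mean of the members within groups were Atp2a2 (r = 0.984 over 12 mice), Myh7 (0.976), Slc25a11 (0.968), Lmod2 (0.964), Hadhb (0.963), Wfs1 (0.960), Myom3 (0.957), Adck3 (0.954), Got2 (0.934) and Egln3 (0.930). The most opposite were Mylpf, the fast regulatory light chain (-0.983), Ppm1j (-0.976), Myh4, the heavy chain of the fastest fibres (-0.969), Dnajb5 (-0.965) and Eno3 (-0.962). The median r of all candidates was -0.28, and 0.74% had r above 0.9. Atp2a2 had values of 403, 38.7 and 86.7 in IW, 36.2, 39.0 and 40.7 in IM, 54.0, 413 and 449 in AW and 147, 313 and 37.3 in AM mice, the same 5 mice being the highest. These r values are descriptions, and the genes share the library of each mouse.

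Because the members moved together, their promoters were read for short motifs. The 250 bases before each start site were taken from RefSeq on build GRCm38.p6, in which the 8 genes had 12 windows. Shown are windows of the pairs with the highest r among the 6 lower mice, Tnnc1 with Tnni1 and Myl3 with Myoz2, 5′ to 3′ in the direction of the gene. Capitals mark matches on either strand to the MCAT motif CATTCC, the CACC box CCACCC, the MEF2 motif and the CArG box. Tnnc1 lies at chr14:31208062-31208311 on the plus strand, Tnni1 at chr1:135799171-135799420 on the plus strand, Myl3 at chr9:110763428-110763677 on the plus strand and Myoz2 at chr3:123034988-123035237 on the minus strand.
Tnnc1: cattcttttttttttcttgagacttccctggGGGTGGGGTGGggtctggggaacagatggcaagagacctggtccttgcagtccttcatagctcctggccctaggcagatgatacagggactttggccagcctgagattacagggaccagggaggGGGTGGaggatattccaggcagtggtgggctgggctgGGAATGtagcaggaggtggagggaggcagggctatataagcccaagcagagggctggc
Tnni1: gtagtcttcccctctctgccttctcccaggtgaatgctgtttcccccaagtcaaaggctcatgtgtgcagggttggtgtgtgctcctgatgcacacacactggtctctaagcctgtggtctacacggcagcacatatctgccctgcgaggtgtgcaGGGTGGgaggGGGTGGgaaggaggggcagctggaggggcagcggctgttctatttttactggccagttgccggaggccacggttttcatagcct
Myl3: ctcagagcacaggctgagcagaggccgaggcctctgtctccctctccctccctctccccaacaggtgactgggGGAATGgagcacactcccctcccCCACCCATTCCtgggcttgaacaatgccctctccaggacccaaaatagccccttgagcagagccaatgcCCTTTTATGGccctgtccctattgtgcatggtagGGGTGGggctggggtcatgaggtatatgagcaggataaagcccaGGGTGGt
Myoz2: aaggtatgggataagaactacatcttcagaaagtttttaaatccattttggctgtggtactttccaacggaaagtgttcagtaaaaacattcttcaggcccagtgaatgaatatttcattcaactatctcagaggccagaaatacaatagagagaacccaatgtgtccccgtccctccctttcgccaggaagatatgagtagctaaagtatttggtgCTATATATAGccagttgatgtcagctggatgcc

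Tnnc1 held an MCAT match 58 to 53 bases before the start and CACC boxes farther out, the outermost pair overlapping by 1 base. Tnni1 had 2 start sites, of which the first is shown, with CACC boxes 94 to 89 and 84 to 79 bases before it. The same boxes lie 184 to 179 and 174 to 169 bases before the second. Myl3 held MCAT matches on both strands, 177 to 172 and 149 to 144 bases out, the nearer overlapping a CACC box, and a CArG box 85 to 76 bases out. Myoz2 had the only MEF2 match, 33 to 24 bases before its start. Over the 12 windows, CACC boxes were in 7 (28.1% of all 32851 windows), MCAT in 2 (12.6%), MEF2 in 1 (2.9%) and CArG in 1 (1.5%). The E-box CANNTG was in all 12 (66.2% of all windows) and the NFAT core GGAAA in 6 (55.6%). A match is a description of letters, and binding was not measured.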

How the data were processed

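Triceps RNA of 12 mice was measured as polyadenylated RNA by 65-base single-end reads. The authors mapped reads with CASAVA (version not given in the sources used here) to mm9, counted them in RefSeq exons and deposited a signal per gene, a read count normalized so that trimmed means (5th percentiles trimmed) were equal. The values are not whole reads: 91.9% to 94.1% of those under 5 lay within 0.15 reads of a multiple of the value of 1 read, but 74.6% to 76.6% of those between 20 and 100, so no count model was used. Differences were tested with limma 3.58.1 (R 4.3.3) on log2(value + 1) for 7247 genes with a mean of at least 10, with 4 group means, eBayes with a trend and Benjamini-Hochberg adjustment over all genes, called under 0.05. Positions and transcript lengths came from the NCBIM37 annotation, by the coding transcript with the longest reading frame. Reads per mouse were estimated with Python 3.11.15 from the spacing of low values. Named genes were the members, Mstn, Myh7, the fast counterparts, the called genes of the listed slow-fibre and Z-disc genes, and the 10 most and 5 least alike. Genes of 8 marker lists were summed per mouse: fast, cardiac and developing muscle are given with the results, adipocytes were 102 to 226, endothelium 180 to 390, immune cells 66.1 to 104 and Schwann cells 10.5 to 49.1 over all mice, and blood was not analysed here. Alternatives were pseudocounts of 0.25 and 4, other filters and scalings, mouse weights, robust eBayes, a replicate block, log2 Myh7 as a covariate, each mouse left out, permutation and fits on 2 groups. The code was tested on simulated data. The members and lists were chosen with earlier results of these data known.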

Additional observations from a re-analysis of the deposited data

How the results depend on the processing

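The direction of the activity difference was the same as reported in 176 of 177 alternative values of the 8 members, that of the genotype difference in 177 of 177, that of AW minus IM, whose alternatives per member were chosen after seeing the data, in 177 of 177 and that of the interaction in 158 of 169. The activity exception was Tnnc1 with log2 Myh7 as a covariate, at -0.011. Other filters, robust eBayes, the replicate block and the permutation leave the difference itself unchanged, so their directions agree by construction. The members also move together, so these values are not independent. Since Myh7 moves with the members, the settings with it as a covariate cannot judge the calls. The interaction was negative for Myl2 with mouse weights (-0.61), with log2 Myh7 (-0.46). With a mouse left out it ran from -0.84 to 2.10 for Myl2, -0.42 to 2.67 for Tnnc1, -0.39 to 2.50 for Tnni1, -0.12 to 1.60 for Tpm3 and -0.059 to 1.45 for Csrp3, the lowest being without IW mouse 1 for Myl2 and without AW mouse 1 for the others. Members called for activity numbered 0 as reported, 6 with mouse weights, and 0 to 5 with a mouse left out, the 5 being without AW mouse 1 and 1 each without IW mouse 1 and AM mouse 3. For genotype the count was 0 to 1 with a mouse left out. In the pairwise comparisons, all in AW minus IM, 2 calls became 8 with mouse weights, 7 in a fit on the 6 mice of each comparison, 1 with quantile normalization, 0 with robust eBayes, 0 with log2 Myh7, 0 at a minimum mean of 50, where Myl3 alone was tested, and 0 to 8 with a mouse left out. The counts were 8 without AW mouse 1, 4 without IW mouse 2, 3 without AM mouse 3, 2 without IW mouse 1 or AM mouse 2, 1 without IW mouse 3, IM mouse 2 or AM mouse 1, and 0 without IM mouse 1, IM mouse 3, AW mouse 2 or AW mouse 3. The correlation count of 28 pairs became 16 without 2 mice. The causes of these changes were not tested, and some of the settings leave fewer mice or genes.

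With the replicate block, 1 of the 2 pairwise calls was lost, as Csrp3 had an adjusted p of 0.0578 (limma), and 1 remained. The numbers did not pair the mice, since same-numbered mice of different groups had mean correlations from -0.274 to 0.243 and the lowest single correlation was under 0.1 for all pairs of groups except IM with AM, where it was 0.171 and no member was called with the block. A mouse correlated best with its own number in 15 of 36 cases. The mean slow share over 12 mice moved by less than the pooled SD within groups for all 7 pairs when values were not divided by length, but Tpm3 in IM mice went from 0.0157% ± 0.00285 to 0.0232% ± 0.00423 (SD, n = 3). The highest Tnni1 share went from 0.514% to 0.848%, above that of Tnnt1 (0.792% to 0.778%). Depth limits the troponins and Myl2 in the low mice, where 3 reads correspond to 0.260 to 0.316.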
